A study of Mus musculus with 4 samples.

Results

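Immediate early genes are transcribed within minutes of a stimulus, and protease digestion, sorting and heating of cells are stimuli of this kind. The 10 genes described here are Fos, Fosb, Jun, Junb, Jund, Egr1, Atf3, Ier2, Dusp1 and Hspa1a, taken by name from the 26600 genes listed for all 4 libraries. They were followed by cell type and by library, which asks how far their levels go with the identity of a cell and how far with the library it was handled in. Fos and Fosb encode Fos subunits of the AP-1 transcription factor, and Jun, Junb and Jund encode its Jun subunits. Fos proteins bind DNA only as dimers with a Jun protein, whereas Jun proteins can also pair with each other. Egr1 is a zinc finger transcription factor of the same early wave, Atf3 a stress-induced factor of the ATF/CREB family, Ier2 a nuclear early response protein, and Dusp1 a phosphatase that switches off MAP kinases. Hspa1a encodes an inducible Hsp70 chaperone and answers mainly to heat shock factor rather than to the growth factor signals that drive the others.

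Td+ endosteal bone marrow cells came from male Col2:Td mice (Col2-Cre Rosa26 lsl-tdTomato, strain B6SJL/F1), in which Cre under a Col2 promoter labels mesenchymal lineage cells. All 4 libraries share this genotype, a protease digestion of metaphyseal bone fragments and a sort for the 1% of marrow cells with the strongest Td signal or for a distinct Td+ peak. Mice of an age were pooled: 2 mice aged 1 month, and 3 each aged 1.5, 3 and 16 months. With 1 library per age there is no replicate, no test between ages was made, and age cannot be told apart from the library, its digestion or its sort. Cells that passed the filter numbered 8308, 5453, 4180 and 6143 in the order of age, with median depths of 10279.5, 9621, 6264 and 9670 UMIs. The 16 month library also differed in other ways. Its median mitochondrial share was 3.62% against 1.78% to 2.65%, the filter on cell quality removed 3086 of its 9229 barcodes, its table lists 31054 genes against 27999, and it shared at most 2 cell barcodes with any other library where the others shared 30 to 61 pairwise. Barcodes that begin with AAACCC numbered 7 at 16 months and 0 in the other libraries, and those that begin with AAACCT numbered 0 at 16 months and 14, 9 and 11 in the others, although the same kit version is stated for all 4. In every contrast of the 16 month library with the others, age cannot be told apart from this barcode set or from the gene table.

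For each library the UMIs of all cells in a class were added up, and levels are given as CPM, the UMIs of a gene scaled to a fixed total of all UMIs. Classes were named from their markers as EMP-like (early mesenchymal progenitors), LMP-like (late mesenchymal progenitors), OB-like (osteoblasts), AD-like (adipogenic lineage cells with Adipoq, Cxcl12 and Lepr), CH-like (chondrocytes) and neutrophil-like. These 6 classes had at least 50 cells in every library, and all of their defining markers were detected in each. The classes were not made up alike in each library. LMP-like cells comprised 1 cluster led by Ostn and Tnn at 16 months (246 cells), such a cluster with Ostn and a second led by Mfap4 or Nppc and Tnmd at 1.5 and 3 months (487 and 359 cells, then 239 and 237), and at 1 month 346 Ostn cells, 142 led by Chodl and Ptx4 and 121 led by cycling genes. CH-like cells included cycling clusters at 1.5 and 3 months (301 and 58 cells) and none at 1 and 16 months, and the summed level of their own markers was 48081, 67975, 47299 and 12183 CPM. Levels for the Ostn clusters alone and for CH-like cells without the cycling clusters are given below. The 10 genes and 65 related genes were kept out of the genes used for clustering. Exact Poisson intervals (95%) cover counting error only. In the 5 mesenchymal classes they were widest, relative to the level, for Hspa1a in EMP-like cells at 3 months (± 23.3%), and for Fos they never exceeded ± 3.82%. The text lists values in the order 1, 1.5, 3 and 16 months.

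Positions are from GENCODE M21 (GRCm38). Fos is at chr12:85473890-85477273, Fosb at chr7:19302696-19310051, Jun at chr4:95049034-95052222, Junb at chr8:84974484-84978718, Jund at chr8:70698949-70700616 and Ier2 at chr8:84661331-84662852. Atf3 is at chr1:191170296-191218039, Dusp1 at chr17:26505590-26562128 and Hspa1a at chr17:34969190-34972156. Jun, Junb, Jund, Ier2 and Hspa1a consist of 1 exon each. Jun, Junb, Jund, Atf3 and Hspa1a overlap genes on the opposite strand (Junos, Prdx2, Gm11175, Gm24748 and Gm20481). Dusp1 overlaps Ergic1 and Gm8225 on the opposite strand and AC122252.4 and AC122252.1 on its own, and whether the counting used strand is not given in the sources used here. The coding sequences of Hspa1a and its neighbour Hspa1b were 99.4% identical, so reads from their coding parts could be assigned to either gene or to none. Hspa1a values are uncertain in that respect.

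Promoters were looked at because several of the genes vary together from cell to cell, as described below. RefSeq promoters (GRCm38.p6) matched 8 of the 10 genes, and Egr1 and Ier2 had none to search. The start used is that of the RefSeq promoter, which is not always the start of the span given above. For Dusp1 and Atf3 it lies inside the span, and the Jund promoter ends upstream of the span, at chr8:70697738. In the 250 bases before this start, both strands were searched for the cyclic AMP response element (CRE) TGACGTCA, its core TGACG, the AP-1 site TGANTCA, the CArG box bound by serum response factor, the heat shock motif GAANNTTC and TATAAA. Matches to the core inside a CRE were counted for both. The core was found in 5 of the 8 promoters (Fos, Fosb, Junb, Atf3 and Dusp1) and in 17.9% of all 27025 promoters of that length, and the whole CRE in Dusp1 and in 1.62% of all. The heat shock motif was found in Hspa1a and Jun and in 6.78% of all, TATAAA in Fos and in 13% of all, and the AP-1 site (6.87% of all) and the CArG box (1.40% of all) in none of the 8. Bases further out were not searched, so sites there would be missed. The core was added to the search after the sequences had been read, and a match describes letters only. Shown are Fos (chr12:85473640-85473889, + strand), Atf3 (chr1:191183334-191183583, - strand), Dusp1 (chr17:26508473-26508722, - strand) and Hspa1a (chr17:34972157-34972406, - strand), which stand for the patterns described below, with motif matches in capitals.
Fos: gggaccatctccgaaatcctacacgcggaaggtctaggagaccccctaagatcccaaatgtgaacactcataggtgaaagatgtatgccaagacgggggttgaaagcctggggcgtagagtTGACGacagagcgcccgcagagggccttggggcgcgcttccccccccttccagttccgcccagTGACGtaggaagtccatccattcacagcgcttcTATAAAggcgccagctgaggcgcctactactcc
Atf3: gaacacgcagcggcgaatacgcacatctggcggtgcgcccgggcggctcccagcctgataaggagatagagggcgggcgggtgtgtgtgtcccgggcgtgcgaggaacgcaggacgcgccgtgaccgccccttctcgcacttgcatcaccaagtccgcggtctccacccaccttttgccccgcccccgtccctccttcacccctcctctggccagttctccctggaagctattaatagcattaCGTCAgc
Dusp1: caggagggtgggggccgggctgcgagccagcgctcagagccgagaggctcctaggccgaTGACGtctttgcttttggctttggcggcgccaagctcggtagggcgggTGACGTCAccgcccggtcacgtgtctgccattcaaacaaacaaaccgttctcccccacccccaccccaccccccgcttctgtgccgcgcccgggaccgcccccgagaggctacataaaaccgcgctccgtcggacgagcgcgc
Hspa1a: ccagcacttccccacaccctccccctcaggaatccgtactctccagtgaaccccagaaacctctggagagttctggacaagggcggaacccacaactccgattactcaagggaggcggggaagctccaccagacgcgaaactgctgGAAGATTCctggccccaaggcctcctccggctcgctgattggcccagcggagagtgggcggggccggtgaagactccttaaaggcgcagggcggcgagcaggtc

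Summed over the 10 genes, AD-like cells held the highest level of all classes with at least 50 cells in each of the 4 libraries. The sum was 17093, 20574, 21416 and 26703 CPM in AD-like cells and 10409, 18385, 12931 and 23249.6 CPM in EMP-like cells. LMP-like cells held 7258, 10182, 12427 and 22617 CPM, CH-like cells 7372, 9427, 9092 and 17950.5 CPM and OB-like cells 5999.6, 8151, 7124 and 9325 CPM. The OB-like class was therefore the lowest mesenchymal class in all 4 libraries, and each of the 5 mesenchymal classes had its lowest sum at 1 month and its highest at 16 months. Over all mesenchymal cells the sum was 8147 CPM at 1 month and 23688 CPM at 16 months, a wider range than within AD-like cells, which made up 211 of 2057 mesenchymal cells at 1 month and 3731 of 4862 at 16 months.

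Of the 10 genes, Hspa1a alone changed direction between libraries in the contrast of AD-like with OB-like cells. The share of all genes that keep one direction in all 4 libraries was not computed. At 2-fold or more in all 4 libraries, 6 of the 10 genes were higher in AD-like than in OB-like cells (Fos, Fosb, Jun, Junb, Egr1 and Dusp1), against 24% of all genes tested. None was lower by that measure (3.81% of all genes). The log2 ratio of Fos was 1.69, 1.51, 1.75 and 1.68, a mean of 1.66 ± 0.10 (SD, n = 4 libraries), and that of Dusp1 averaged 1.70 ± 0.10. Jun had the highest mean ratio, 2.11 ± 0.20 on the log2 scale, followed by Fosb with 1.95 ± 0.15 and Egr1 with 1.92 ± 0.51. Junb averaged 1.46 ± 0.20 and Jund 1.16 ± 0.16, and Jund fell just short of 2-fold at 1.5 months. Ier2 differed least, with a mean of 0.33 ± 0.16. The classes were made from the same cells and the libraries differ in age, so these ratios are descriptions.

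**Figure D1:**
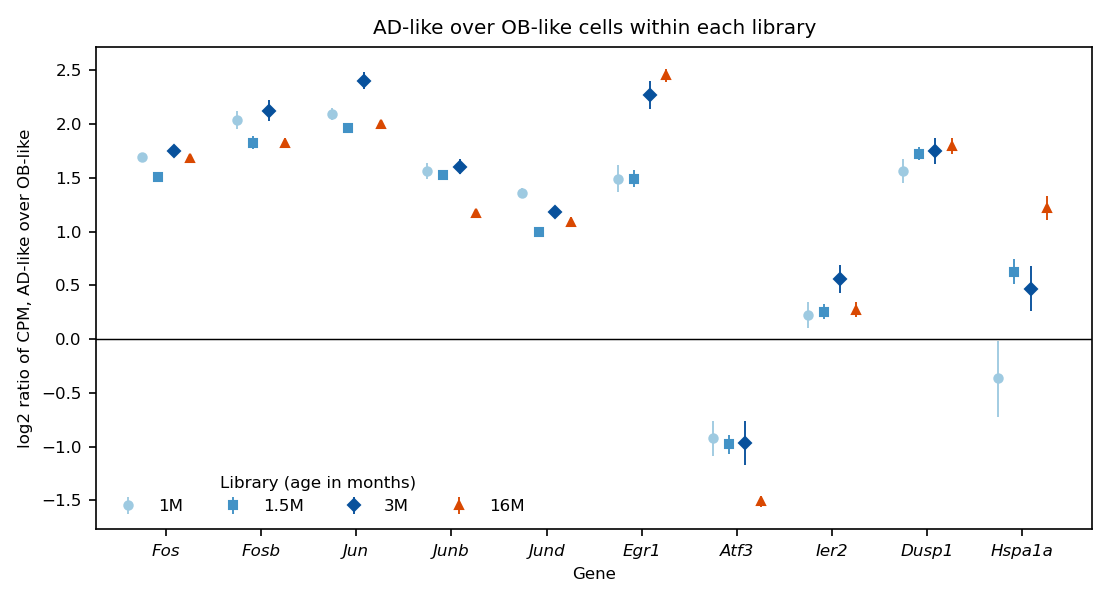
Log2 ratio of CPM in AD-like over OB-like cells (vertical axis) for each gene (horizontal axis) in each of the 4 libraries, with 95% intervals from counting error. Fos, Fosb, Jun, Junb, Jund, Egr1, Ier2 and Dusp1 lay above 0 in every library, Atf3 lay below 0 in every library, and Hspa1a crossed 0.

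Fewer of the 10 genes, and fewer of all genes, were at least 2-fold higher in AD-like cells than in the other mesenchymal classes. These counts of the 10 lay near the shares of all genes. Against CH-like cells, 2 genes (Jun and Dusp1) were at least 2-fold higher in AD-like cells in all 4 libraries, against 15.5% of all genes tested. Against LMP-like cells it was 0 of the 10 (7.05% of all genes), and against EMP-like cells 0 of the 10 (4% of all genes). None of the 10 was lower by this measure than in CH-like (5.96% of all genes), LMP-like (5.16%) or EMP-like cells (4.8%). The log2 ratio of Fos in AD-like over LMP-like cells was 1.21, 0.91, 0.71 and 0.25, and that of Junb was 1.66, 1.82, 1.49 and 0.31. Both were smallest at 16 months, as were the LMP ratios of Fosb, Jun, Jund, Egr1 and Dusp1. In AD-like over EMP-like cells the log2 ratio of Fos was 0.85, 0.09, 0.53 and -0.07, and Fos was higher in EMP-like than in AD-like cells at 16 months. At 3 months the direction rested on the clustering. With a resolution of 1.2, which left 64 EMP-like cells, Fos was at 6563 CPM in EMP-like and 4989 CPM in AD-like cells, against 3867 and 5576 CPM otherwise.

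Fos was the most abundant of the 10 in AD-like cells in every library, at 4672, 5346, 5576 and 7066 CPM. In EMP-like cells it was at 2584, 5025, 3867 and 7413 CPM and in LMP-like cells at 2016, 2851, 3401 and 5943 CPM. OB-like cells held 1449.6, 1876, 1656 and 2205 CPM and CH-like cells 2069, 2041, 1491 and 4037 CPM. The AD-like values did not overlap those of OB-like or CH-like cells in any pairing of libraries, whereas the EMP-like value at 16 months exceeded all AD-like values. Fos was at its highest at 16 months in all 5 mesenchymal classes, by 1.51-fold over the lowest library in AD-like cells and 1.52-fold in OB-like cells, but by 2.95-fold in LMP-like and 2.87-fold in EMP-like cells.

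Fosb was less abundant and separated the 16 month library further. AD-like cells held 1546, 1441, 1865 and 3278 CPM, LMP-like cells 524, 533, 1004 and 3007 CPM and OB-like cells 377, 406, 428 and 925 CPM. EMP-like cells held 836, 776, 722 and 2184 CPM and CH-like cells 574, 608, 747 and 1998 CPM. In each mesenchymal class the 16 month value lay above the other 3, and in LMP-like cells the log2 ratio to the mean of the others was 2.20, against 1.03 in AD-like cells.

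The Jun genes did not move as a group. Jun was at 3349, 2917, 3177 and 5798 CPM in AD-like cells and 786, 751, 601 and 1453 CPM in OB-like cells. Junb was at 1653, 3331, 2803 and 3097 CPM and 561, 1154, 924 and 1378 CPM in these classes. Jund was at 3778, 4403, 5073 and 2432 CPM and 1472, 2213, 2237 and 1142 CPM. Jun was highest at 16 months in both classes, and the 16 month library was set apart from the other 3, which lay close together. Junb instead was lowest at 1 month, and in AD-like cells its 1.5 month value exceeded the 16 month value.

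Jund ran the other way. In AD-like, EMP-like and OB-like cells it was lowest at 16 months, with log2 ratios to the mean of the other 3 libraries of -0.85, -0.86 and -0.76. In LMP-like cells it was at 1847, 2364, 3404 and 2171 CPM and in CH-like cells at 1771, 2230.1, 3317 and 2273 CPM, where the 16 month value lay inside the range of the others. Jund is known as the Jun gene that is expressed most constantly, and it was the only one of the 10 with its lowest value at 16 months in EMP-like and OB-like cells. In AD-like cells Ier2 shared that place, with values that lay within 1.18-fold of each other.

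Of the 10 genes, Egr1 (chr18:34859823-34864984, 2 exons) had the largest SD between libraries over the mesenchymal classes. It was at 574, 783, 1078 and 2737 CPM in AD-like cells, 445, 712, 622 and 2539 CPM in EMP-like cells and 283, 457, 602 and 2652 CPM in LMP-like cells. In OB-like cells it was at 204, 279, 223 and 501 CPM and in CH-like cells at 307, 396, 462 and 1551 CPM. The highest library exceeded the lowest by 9.36-fold in LMP-like, 5.71-fold in EMP-like, 4.77-fold in AD-like, 5.06-fold in CH-like and 2.45-fold in OB-like cells, and the highest was the 16 month library each time. The log2 ratio of AD-like over OB-like cells was 1.49 (95% interval 1.36 to 1.62) at 1 month and 1.49 (95% interval 1.41 to 1.57) at 1.5 months. It was higher, beyond counting error, at 3 months with 2.27 (95% interval 2.14 to 2.40) and at 16 months with 2.45 (95% interval 2.39 to 2.51).

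Atf3 reversed the order of the classes. It was lower in AD-like than in OB-like cells in 4 of 4 libraries, at 219, 229, 144 and 295 CPM against 415, 452, 281 and 841 CPM, a mean log2 ratio of -1.09 ± 0.28. EMP-like cells held 623, 722, 248 and 699.8 CPM and CH-like cells 283, 461, 251 and 1069 CPM. It was higher in each of these than in AD-like cells in all 4 libraries. LMP-like cells held 206, 162, 114 and 327 CPM, close to the AD-like level. Osteocyte-like cells, of which 41, 93, 32 and 52 were found and in which 1 of 5 markers was at 0 at 1, 1.5 and 3 months, held more Atf3 than any other class in each library, at 1227, 895, 930.2 and 2110.3 CPM. Their Egr1 and Jun levels were nearer to those of OB-like than of AD-like cells, with Egr1 at 228, 227, 279 and 1037 CPM.

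Ier2 was the flattest of the 10. It was at 470.4, 554, 498 and 469 CPM in AD-like cells, 403, 464, 338 and 388 CPM in OB-like cells and 437, 634, 498 and 808 CPM in CH-like cells. The AD-like values spanned 1.18-fold and the OB-like values 1.38-fold, and the lowest AD-like value, 469 CPM, lay just above the highest OB-like value, 464 CPM. EMP-like cells at 1.5 months (804 CPM) and CH-like cells at 16 months (808 CPM) held the most.

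Dusp1 followed cell class more than library. It was at 779, 1332, 1016 and 1156 CPM in AD-like cells and 574, 1984, 754 and 961 CPM in EMP-like cells, where the 1.5 month value stood above the rest. OB-like cells held 264, 403, 302 and 333 CPM. The OB-like values spanned 1.53-fold, and none of them reached the lowest AD-like value. In AD-like cells the 16 month level differed from the mean of the other libraries by 0.18 on the log2 scale, and in every mesenchymal class its highest library was the 1.5 month one.

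Hspa1a and Atf3 were the least abundant of the 10 in AD-like cells, and Hspa1a had one of the widest ranges over libraries. It was at 51.9, 236, 185 and 374 CPM in AD-like cells, 83.6, 226, 191 and 346 CPM in LMP-like cells and 66.9, 153, 133 and 161 CPM in OB-like cells. CH-like cells held 46.3, 102, 55.6 and 334 CPM and EMP-like cells 106, 279.7, 109 and 225 CPM. The 1 month value was the lowest in all 5 classes, and the range was 7.20-fold in AD-like and 7.21-fold in CH-like cells. The AD-like over OB-like contrast changed sign, from a log2 ratio of -0.36 (95% interval -0.72 to -0.02) at 1 month, on 85 UMIs in AD-like cells, to 1.22 (95% interval 1.11 to 1.33) at 16 months. At 1.5 and 3 months it was 0.62 (95% interval 0.51 to 0.74) and 0.47 (95% interval 0.26 to 0.68).

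**Figure D2:**
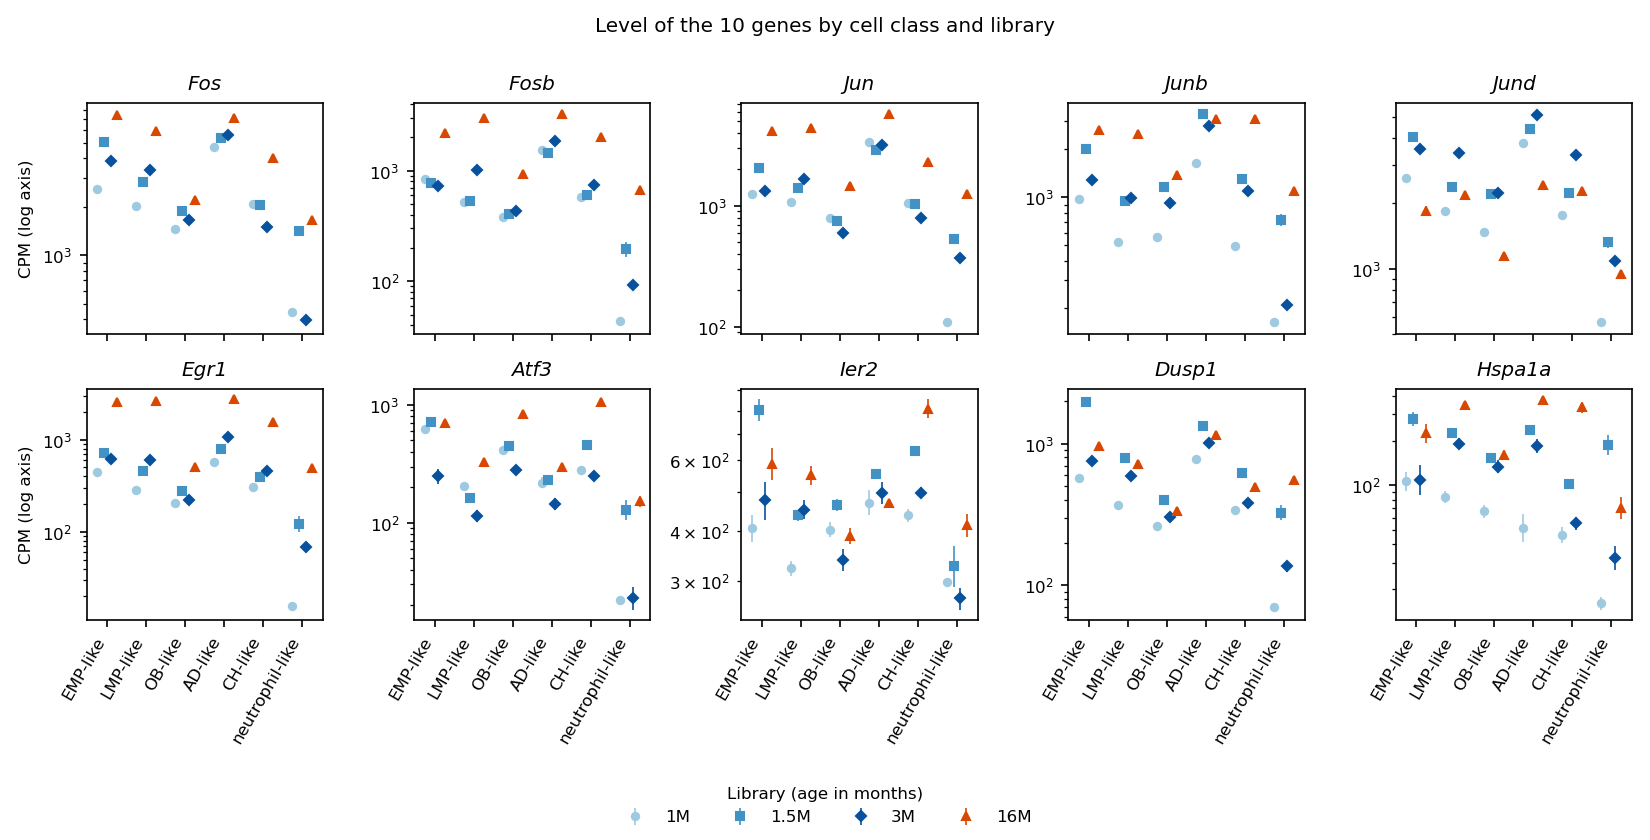
Level of each of the 10 genes (CPM, log axis, 1 panel per gene) in the 6 classes found in every library (horizontal axis), with 1 point per library and 95% Poisson intervals. The 16 month points lie above the others for Fosb, Jun and Egr1 in all 5 mesenchymal classes, the Jund points at 16 months lie lowest in EMP-like, OB-like and AD-like cells, and the Hspa1a points at 1 month lie lowest in every class.

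Within a library, most of the 10 genes differed between mesenchymal classes, as did most genes tested. All 10 passed the minimum of 20 CPM in the highest class or library, in every comparison below. The highest class exceeded the lowest by 2-fold or more for 9 of the 10 genes at 1 month (61.5% of all genes tested), 8 at 1.5 months (70.1%), 9 at 3 months (70.8%) and 10 at 16 months (72.4%). Ier2 fell short at 1, 1.5 and 3 months, and Jund at 1.5 months. The median of the 10 ranges was 2.99-fold, 3.20-fold, 3.40-fold and 3.41-fold, where all genes tested had medians of 2.37-fold, 2.64-fold, 2.73-fold and 2.93-fold.

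Within a class, the highest library exceeded the lowest by 2-fold or more for 9 of the 10 genes in EMP-like cells (54% of all genes tested), 8 in LMP-like (50%), 7 in CH-like (54.7%), 6 in OB-like (32.5%) and 6 in AD-like cells (37.7%). The median of the 10 ranges was 2.89-fold in EMP-like, 3.51-fold in LMP-like, 3.17-fold in CH-like, 2.41-fold in OB-like and 2.03-fold in AD-like cells. All genes tested had medians of 2.10-fold, 2.00-fold, 2.12-fold, 1.72-fold and 1.79-fold. In AD-like cells the median of the 10 lay close to the limit of 2-fold. The counts take no account of direction, and Jund was lowest at 16 months in AD-like cells. These counts rested largely on the 16 month library. Without it, the counts were 4 in EMP-like cells (24.9% of all genes), 3 in LMP-like (15.5%), 2 in CH-like (18.5%), 2 in OB-like (12.1%) and 2 in AD-like cells (12.4%). Junb and Hspa1a were the 2 genes in OB-like, AD-like and CH-like cells. Against the mean of the other 3 libraries, the 16 month value was at least 2-fold higher for 7 of the 10 in LMP-like cells (19% of all genes), 7 in CH-like (18.9%), 4 in EMP-like (20.8%), 4 in OB-like (9.46%) and 3 in AD-like cells (11.5%). It was 2-fold lower for none of the 10, against 10.8%, 15.9%, 9.66%, 6.03% and 6.46% of all genes in these classes. The 1 month value was at least 2-fold lower than the mean of the others for 5 of the 10 in LMP-like cells (6.09% of all genes), 3 in CH-like (7.47%), 2 in EMP-like (9.11%), 2 in OB-like (3.19%) and 2 in AD-like cells (4.54%).

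Both class definitions that differed between libraries were narrowed, a choice made after seeing the data. In the Ostn clusters of LMP-like cells alone, the sum of the 10 was 6600 CPM at 1 month, 9420.2 at 1.5, 9325 at 3 and 22617 at 16 months. There, 8 of the 10 genes again passed 2-fold between libraries, against 51.4% of all genes tested. Egr1 was at 287, 433, 457 and 2652 CPM and Jun at 958, 1309.7, 1215 and 4405 CPM in these cells, both highest at 16 months. Fosb at 3 months moved most, from 1004 to 580 CPM. In CH-like cells without cycling clusters the sum was 7372, 9429, 9137 and 17951 CPM, and 7 genes passed 2-fold (55.3% of all genes).

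To set both sources of variation side by side, the SD of log2 CPM was taken between the 4 libraries (averaged over the 5 mesenchymal classes) and between the classes (averaged over the libraries). It was wider between libraries for 4 of the 10 genes, Fosb, Junb, Egr1 and Hspa1a, and for 30.4% of all genes tested. The SD of Egr1 was 1.01 between libraries and 0.73 between classes, and that of Hspa1a was 0.86 and 0.39. Fos had 0.45 and 0.68, Dusp1 0.43 and 0.72, and Jun 0.64 and 0.80. For Ier2 both were 0.23. Medians over the 10 genes were 0.64 between libraries and 0.68 between classes, against 0.35 and 0.49 over all genes. The count of 4 became 2 without the 16 month library (Ier2 and Hspa1a, 13% of all genes) and 7 without the 1.5 month library (33.7% of all genes), and it was 5 without the 1 month (28%) or the 3 month library (35.8%), so the split by gene depends on which libraries are compared, and Hspa1a is the one gene with the wider spread between libraries in each case.

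**Figure D3:**
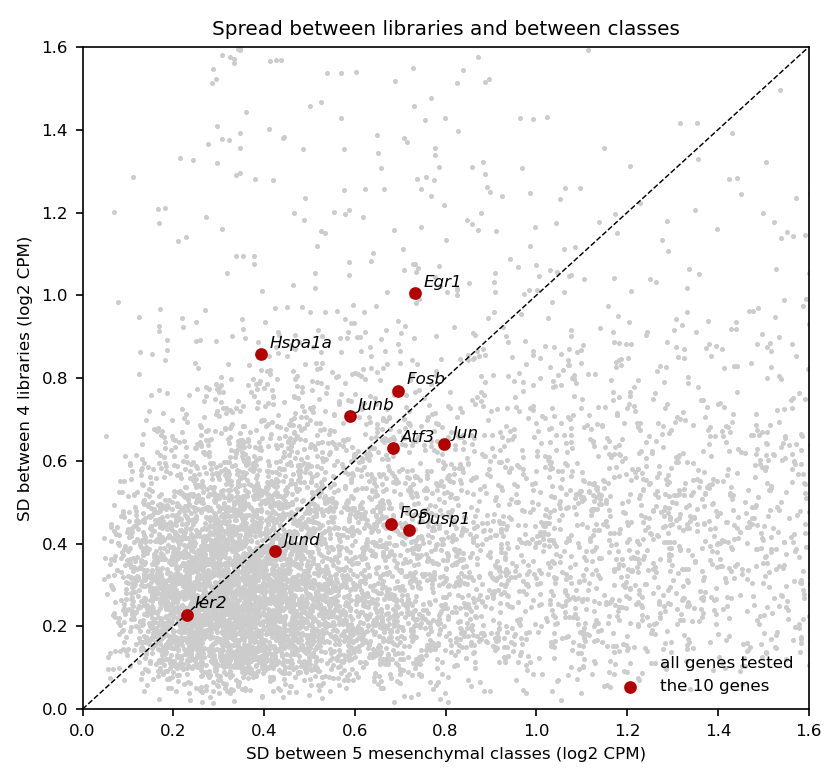
SD of log2 CPM between the 4 libraries (vertical axis) against the SD between the 5 mesenchymal classes (horizontal axis). Red points are the 10 genes, grey points all genes tested (891 of 8205 lie outside the axes) and the dashed line marks equality. Egr1, Hspa1a, Fosb and Junb lie above the line.

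Endothelial-like cells (169, 32, 247 and 91 cells) held 9188, 20310.3, 17496 and 22907 CPM of the 10 genes and the highest Hspa1a of the classes with 50 cells at 1, 3 and 16 months, with 307, 327, 600.3 and 866 CPM. Mural-like cells (25, 63, 30 and 21 cells) held 7839, 13452, 15626 and 27019 CPM and the highest Hspa1a at 1.5 months. Hspa1a therefore peaked outside the mesenchymal classes named above. Erythroid-like cells were low, at 1540.3, 2139.5, 1989 and 6260.1 CPM, as were B lineage-like cells, found only at 1 month, with 2520.0 CPM.

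Neutrophil-like cells held 1749, 5286, 2684 and 7299 CPM of the 10 genes, and Fos among them was at 443, 1424, 396 and 1657 CPM. Egr1 was at 15.8, 122, 68.1 and 497 CPM. Of the 10 genes, 9 differed by 2-fold or more between the libraries in these cells, as did 82.5% of all genes tested, a share near that of the 10. Without the 16 month library it was 9 as well (59.3% of all genes). At 2-fold or more in all 4 libraries, 7 of the 10 were higher in AD-like than in neutrophil-like cells (23.2% of all genes) and none was lower (7.56%). Transcripts of other classes also differed between libraries in these cells. They were highest at 1.5 months, whereas the sum of the 10 genes was highest at 16 months. The summed level of 8 mesenchymal genes in neutrophil-like cells was 11%, 30.9%, 11.9% and 18.0% of that in AD-like cells, and at 1.5 months only 74 neutrophil-like cells were found. The part of these transcripts in the neutrophil values was not tested. With the highest 8% of doublet scores left out, Fos in neutrophil-like cells at 16 months was at 1036 CPM, Fosb went from 667 to 247 CPM, Jun from 1246 to 703 CPM, Egr1 from 497 to 186 CPM and Hspa1a from 70.6 to 19.5 CPM. At 3 months Egr1 was at 39.1 CPM without those cells and at 126 CPM with a resolution of 0.5. Single neutrophil levels therefore depend on the clustering and on whether cells with high doublet scores are kept. The part of doublets was not tested. Doublet scores at 16 months are uncertain, since the tool that gave them called only 6 of 6143 cells there. In the other direction, S100a8 and S100a9 in AD-like cells stood at 2.84%, 0.215%, 0.820% and 0.0666% of their neutrophil level, highest at 1 month, where the 10 genes were lowest, and lowest at 16 months.

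Cells of 1 class differed widely in these genes. With each cell thinned to 3000 UMIs, the median AD-like cell held 46, 56, 66 and 77 UMIs of the 10 genes, the 10th percentile was 23, 11, 13.6 and 20 and the 90th percentile 91, 117, 118 and 139. The median OB-like cell held 16, 21, 21 and 25 UMIs, and its 90th percentile, 31, 43, 39 and 48, lay below the AD-like median in each library. Over the 20 combinations of 5 classes and 4 libraries, the 90th percentile was 3.96 to 10.6 times the 10th, and the top 10% of cells held 20.8% to 32.4% of the UMIs. These spreads include the sampling of few UMIs per cell, and cells shallower than 3000 UMIs, such as 58 of 425 AD-like cells at 3 months, were left out.

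**Figure D4:**
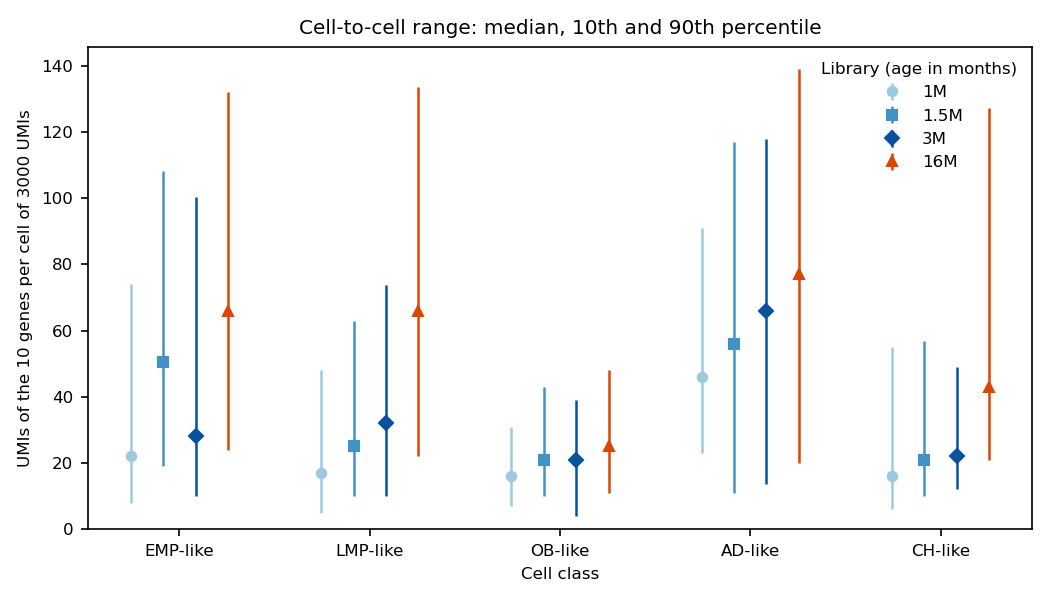
UMIs of the 10 genes per cell thinned to 3000 UMIs (vertical axis) by class (horizontal axis) and library, with points at the median over cells and bars from the 10th to the 90th percentile. The bars of AD-like cells run from 11 to 117 UMIs at 1.5 months and from 20 to 139 at 16 months, and the OB-like bars end at 48 UMIs or lower.

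The genes varied together from cell to cell. Each gene was correlated with the sum of the other 9 over the thinned cells of a class and library (91 to 3656 cells), as a description, since cells share their library. Spearman's rho was above 0 in all 20 combinations for every gene but Hspa1a. Medians over the 20 were 0.71 for Jun, 0.66 for Egr1, 0.66 for Junb and 0.65 for Fos, and lower for Fosb (0.54), Ier2 (0.50), Dusp1 (0.48), Jund (0.43) and Atf3 (0.33). Hspa1a stood apart with a median of 0.18, and in AD-like cells its values were -0.06, 0.14, -0.01 and 0.17. The median over all other genes tested was between -0.02 and 0.02. The genes outside the 10 that followed their sum most often are on the list of further immediate early genes. Klf2, a Krüppel-like factor, was among the 5 most alike in 19 of 20 combinations, Zfp36, which destabilizes mRNA, in 18, Nfkbia, the inhibitor of NF-kB, in 12 and Socs3, a cytokine signalling inhibitor, in 10.

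Cells with more of these transcripts tended to have fewer mitochondrial ones. The rho between the sum of the 10 and the percent of mitochondrial UMIs was below 0 in all 20 combinations, with a median of -0.15 and a range of -0.56 to -0.03. In AD-like cells it was -0.40, -0.36, -0.25 and -0.22. The rho with the total UMIs of a cell before thinning was of like size, with a median of -0.16, and below 0 in 19 of the 20. Between libraries, in contrast, both the sum and the mitochondrial share were lowest at 1 month and highest at 16 months. The part of mitochondrial content or of depth in these patterns was not tested.

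At 1 and 3 months AD-like cells formed 1 cluster each. At 1.5 and 16 months they fell into subclusters that differed in which of the 10 genes were high. These subclusters were made from the same cells, so their values are descriptions. At 16 months the largest (986 cells, led by Gm4951 and Timp4) held 18880.5 CPM of the 10 genes, and the one led by Trim65, Lsmem1 and Rgs16 (952 cells) held 36452 CPM. The latter had more of each of the 10 genes than the former, with Fos at 10769.9 against 5788 CPM and Egr1 at 3988 against 1607 CPM. Of its cells, 11.1% had a doublet score in the highest 8% of the library, against 1.83% of the former. The doublet scores of this library are uncertain, as given above, and the part of doublets was not tested. The division depends on the resolution. At 0.5 the 16 month AD-like cells fell mainly into clusters of 1758 (led by Ccl2 and Il6) and 1706 cells (Gm12216 and G0s2) with no cluster led by Trim65, whereas at 1.2 clusters with Trim65 (511 cells) and with Fosl1 (735 cells) among their leading genes were separate.

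A further 16 month subcluster, led by Fosl1, Il6 and Ccl2 (865 cells), combined the highest Fosb of the AD-like subclusters, 4828 CPM, with the lowest Fos, 3144 CPM. Ier2 (272 CPM) and Hspa1a (143 CPM) were lowest there too, as was Jun (4424 CPM). It was the only AD-like subcluster in which Fosb exceeded Fos. At 1.5 months, 2 AD-like subclusters were found. One, led by Ccl2 (721 cells), held 5744 CPM of Jund and 1949.8 CPM of Fosb. The other, led by interferon-induced genes such as Iigp1 and Isg15 (523 cells), held 2527 CPM of Jund and 729 CPM of Fosb. Fos differed little between them, at 5064 and 5742 CPM, and Hspa1a was higher in the second, at 356 against 151 CPM.

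**Figure D5:**
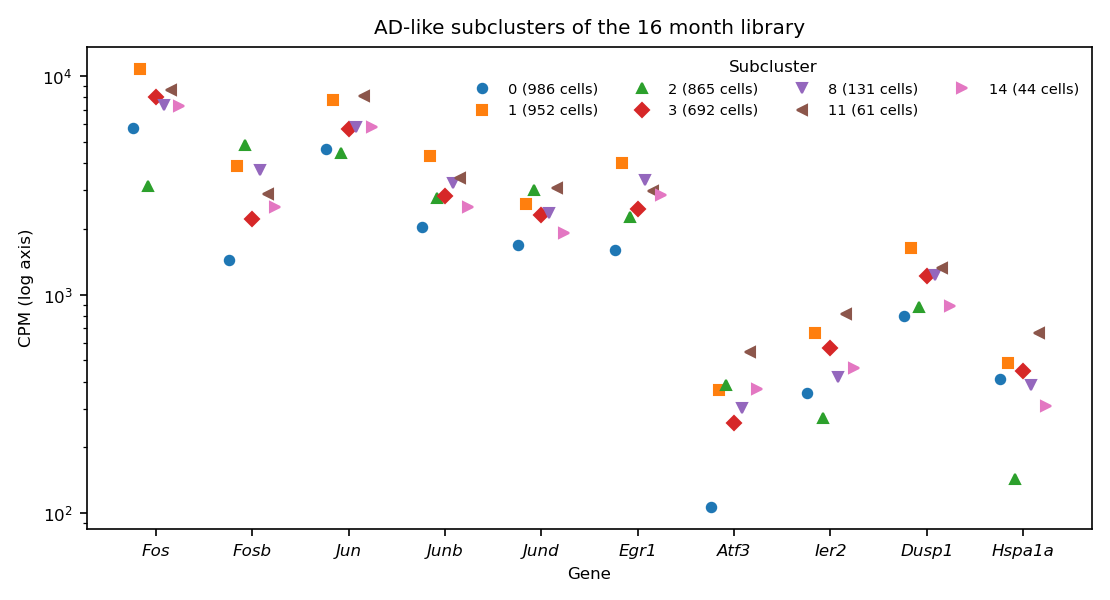
CPM (vertical, log axis) of each of the 10 genes (horizontal axis) in the 7 AD-like subclusters of the 16 month library, with 1 point per subcluster. The subcluster of 865 cells has the lowest Fos, Jun, Ier2 and Hspa1a and the highest Fosb, and the subcluster of 986 cells has the lowest Fosb, Junb, Jund, Egr1, Atf3 and Dusp1.

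Over the 44 combinations of named class and library with at least 50 cells, the genes whose log2 CPM was most like the mean log2 CPM of the 10 were Bmpr2 (Pearson r = 0.95), Rab12 (0.94), Socs3 (0.94), Dag1 (0.94) and Pja2 (0.94), against a median of 0.23 over 5363 genes. These points share their libraries and depths. Fos was most like Socs3, Pkd2 and Errfi1 (r = 0.94 each). Jund was less tied to the rest and was most like Morf4l1 (0.86), Tm2d1 (0.84) and Slc35a1 (0.83), and its r with Fos was 0.66. Hspa1a was most like its near-identical neighbour Hspa1b (0.87), then Qk (0.78) and BC005537 (0.77).

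Other genes of the same response were counted from lists. Of 40 further immediate early genes, 39 were in all tables. Among those at 20 CPM or more in the highest library, 29 of 36 differed by 2-fold or more between libraries in LMP-like cells (50% of all genes), 31 of 36 in CH-like (54.7%), 24 of 37 in EMP-like (54%), 20 of 34 in OB-like (32.5%) and 19 of 38 in AD-like cells (37.7%). The 16 month library was the highest for 28 of the 29 in LMP-like, 27 of the 31 in CH-like, 14 of the 24 in EMP-like, 16 of the 20 in OB-like and 13 of the 19 in AD-like cells. No share of all genes was computed for this direction. Against the mean of the other 3 libraries, all genes leaned to 16 months as well, with the shares given above. In LMP-like cells 19% were at least 2-fold higher and 10.8% lower, in EMP-like cells 20.8% and 9.66%. In AD-like cells the widest ranges were those of Egr3, Txnip and Egr2. Egr3, a relative of Egr1, was at 0, 0.522, 1.03 and 83.6 CPM, at least 45.6-fold higher at 16 months when 3 counts per library are taken as the floor. In all 6 classes Egr3 lay between 0 and 1.82 CPM in the 3 libraries that share a gene table and between 23.5 and 159 CPM at 16 months, and the part of the gene table in this was not tested. Egr2 was at 11, 27.8, 33.6 and 63.9 CPM and Txnip, which inhibits thioredoxin, at 33.6, 69.2, 47.6 and 216 CPM. The narrowest ranges were those of Ier5 (1.09-fold), Dusp5 (1.22-fold) and Maff (1.34-fold).

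Of 13 further heat shock genes, 5 of 13 in AD-like and 8 of 13 in LMP-like cells differed by 2-fold or more, the former a share near that of all genes (37.7%) and the latter above it (50%). The 16 month library was the highest for all 5 in AD-like cells (Hspa1b, Hspb1, Hsph1, Hsp90aa1 and Hsf1), for 5 of the 8 in LMP-like, 4 of 7 in CH-like, 2 of 4 in EMP-like and 2 of 4 in OB-like cells. For this direction, too, no share of all genes was computed. Hspa1b went from 2 UMIs at 1 month to 173 CPM at 16 months in AD-like cells, a ratio of 141 with a counting interval of 39.1 to 1167, and the 16 month library was counted against another gene table, whose part in it was not tested. Hspb1, a small heat shock protein, was at 111, 165, 408 and 553 CPM and Hsph1, an Hsp110 chaperone, at 39.1, 50.8, 90.5 and 121 CPM. The constitutive Hspa8 (3531, 3501, 3851 and 3208 CPM), the endoplasmic reticulum chaperone Hspa5 (1.33-fold) and the mitochondrial Hspd1 (1.39-fold) had the narrowest ranges. Of 12 upstream factors and kinases, 4 of the 11 tested in AD-like cells differed by 2-fold or more, Srf, Creb1, Mapk14 and Crem, again near the share of all genes (37.7%). Srf, which drives many of these genes, was at 13.4, 12.4, 16.5 and 30.7 CPM, Creb1 at 26.3, 25.1, 33.6 and 55.4 CPM and Mapk14 at 12.8, 26.9, 21.2 and 27.8 CPM. Crem, a CREB relative, was highest at 1 month with 24.4 CPM and lowest at 16 months with 11.6 CPM. Elk3 (1.40-fold) and Mapk8 (1.42-fold) were among those with narrow ranges.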

How the data were processed

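The authors used Cell Ranger (3.0.2) and a modified mm10 reference, per the submitters' processing notes and methods, and deposited raw UMI counts per gene and barcode for each library, without normalization. Which gene annotation was used is not given in the sources used here. Following the study's methods, barcodes under 200 or over 6000 genes, or over 5% mitochondrial UMIs, were removed. The study states more cells at 3 and 16 months than the 4180 and 6143 that these limits left, so the limits as stated here may not be those behind its cells, and a 10% limit was among the alternatives. Barcodes shared between libraries were counted and left in place. Scrublet (scanpy 1.11.5) called 0, 96, 54 and 6 cells as doublets. With 0 of 8308 and 6 of 6143, its calls had not worked at 1 and 16 months. No doublets were therefore removed in the main analysis. Its scores were used only to rank cells within a library, and those at 1 and 16 months are uncertain. Each library was clustered alone in Seurat 5.3.0 (R 4.3.3, Matrix 1.6.5) with 2000 variable genes, 30 components and a resolution of 0.8, and mesenchymal cells were clustered again. A name required a list with 3 or more markers, and 50% or more of the list, raised 2-fold, and no other list with more markers among the 10 leading genes. Clusters with markers of another lineage (399, 0, 86 and 370 cells) were set aside as mixed. CPM were computed over the 26600 shared genes, with exact Poisson intervals (scipy 1.17.1). Genes tested had at least 20 CPM in the highest group. Log2 ratios between classes or libraries used CPM plus 1, except those printed with an interval. Shares of all genes past the same limit give the background.

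The 10 genes and the lists were chosen with earlier results of these data known. The text names all 10. Of the further lists it names the 3 genes with the widest and the 3 with the narrowest range over libraries in AD-like cells, except 1 that is not reported here, and it names the genes most alike by Pearson r. Crem, Hsp90aa1 and Hsf1, outside the rule, and genes that lead subclusters or follow the sum within cells were named after their values were seen. The range rule was tested on simulated data. Alternatives changed the resolution (0.5 and 1.2), the clustering genes, the mitochondrial limit (10%), depth (3000 UMIs), doublets (highest 8% of scores left out), the mean over cells, the CPM total, the filter, the fold (1.5) and the libraries. The count for AD-like over OB-like cells, LMP-like cells from the Ostn clusters alone and CH-like cells without cycling clusters were added after seeing the data.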

Additional observations from a re-analysis of the deposited data

Results flagged for a closer look

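A signal appeared in data no comparison above uses: barcodes removed by the filter held the 10 genes at a summed level of 4214, 11366, 7614 and 15369.9 CPM in the order of age. The cells kept held 3979, 11133, 8996 and 20165 CPM over the same gene tables. Nearly all removed barcodes exceeded the mitochondrial limit alone (98 of 109, 291 of 292, 325 of 336 and 2892 of 3086). Those over the mitochondrial limit alone held 4758, 11384.5, 8000 and 15738 CPM. The removed barcodes therefore held less of these transcripts than the kept cells at 3 and 16 months and more at 1 and 1.5 months. Both sides pool all cell classes, whose shares may differ, and the part of the cell mix was not tested.

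The contrast of Hspa1a between AD-like and OB-like cells had opposite signs in different libraries, with log2 ratios of -0.36, 0.62, 0.47 and 1.22 in the order of age. With 1 library per age the difference was not tested. None of the other 9 genes had intervals on both sides of 0 in this contrast.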

How the results depend on the processing

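The 12 counts of genes (ranges in 6 classes and 4 libraries, the comparison of spreads, and AD-like over OB-like cells) stayed within 1.5 times their main value under every alternative that keeps all 4 libraries. Leaving out 1 library at a time gave 4 to 8 of the 10 genes past 2-fold in EMP-like cells, 3 to 8 in LMP-like, 2 to 6 in OB-like, 2 to 5 in AD-like and 2 to 7 in CH-like cells, with the lowest value each time without the 16 month library, 2 to 7 genes with the wider spread between libraries, and 6 to 7 genes higher in AD-like than in OB-like cells. Of the single levels, 5 to 9 of 230 to 240 moved by over 1.5-fold under each change of clustering, filter, depth, doublets or averaging, most of them in neutrophil-like cells, and 2 of 40 with LMP-like cells from the Ostn clusters alone (Fosb 580 and Hspa1a 118 CPM at 3 months). In mesenchymal classes the moves were those of Fos (6563 CPM), Fosb (1232), Egr1 (990.2) and Atf3 (499) in EMP-like cells and of Atf3 (173) and Hspa1a (126) in LMP-like cells at 3 months with a resolution of 1.2, of Atf3 in EMP-like cells at 16 months (431) with a mitochondrial limit of 10%, and of Hspa1a in CH-like cells at 16 months (518) as a mean over cells. The cause was not tested. A CPM total without mitochondrial, ribosomal protein and hemoglobin genes raised levels by 1.19-fold in the median and 1.35-fold at most. No paired analysis was possible because each age has 1 library. Depth limits Hspa1a most, in EMP-like cells at 3 months (± 23.3%). The count for AD-like over OB-like cells was added after seeing the data.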
